A study of Mus musculus with 39 samples.

Results

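The 34 genes described here are the neighbours of Lmo4 on mouse chromosome 3: every gene that overlaps chr3:138851494-148868184 of NCBIM37 (mm9), 5 Mb to either side of Lmo4, with a summed count of at least 39 over 39 libraries. They were chosen by position and read depth, and they stand among 51826 gene identifiers in the files, of which 32708 have an NCBIM37 position. Lmo4 itself and the guanylate-binding protein (Gbp) genes of the segment were left out by name, with earlier results of these data known. RNA came from 2 brain regions, the nucleus accumbens (NAc) and the basolateral amygdala (BLA), of 9 mice heterozygous for a gene-trap allele of Lmo4 (Lmo4gt/+) and 11 wild-type (WT) mice, all labelled C57BL/6J and 8 to 12 weeks old, with no treatment given in the labels. Micropunches of 9 Lmo4gt/+ and 11 WT BLA and of 9 Lmo4gt/+ and 10 WT NAc gave 1 polyA RNA library each, and 19 mice gave both regions. The sources used here do not give the position of the trap in Lmo4, the embryonic stem cells it was made in or the number of backcrosses.

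A gene trap is a cassette that lands in a gene, captures its transcript through a splice acceptor and usually carries a reporter and a selection gene with a promoter or polyadenylation signal of its own. Such a cassette can in principle touch the genes beside its landing site, and a trapped locus passes down the generations together with the chromosome segment around it. A comparison of the neighbours between carriers and WT littermates or strain mates is therefore a common check on a trapped allele. LMO4, the product of the trapped gene, is a LIM-only adaptor that binds no DNA itself and joins transcription factors to cofactors.

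Gene counts per library ran from 21255934 to 51021670, with medians of 33041166 in Lmo4gt/+ BLA, 31661388 in WT BLA, 28033665 in Lmo4gt/+ NAc and 27319428 in WT NAc. Levels are given as CPM, counts brought to a common library size over all 39 libraries; their ± is the SD over libraries, while that of a log2 fold change is the standard error. No litter, batch or collection date is given in the labels, so the p-values measure the spread between these punches. Lmo4 differed by genotype in both regions (log2 fold change -0.85 ± 0.06 in the BLA, adjusted p = 2.82e-09, and -0.68 ± 0.09 in the NAc, adjusted p = 0.00214, edgeR's quasi-likelihood test with Benjamini-Hochberg adjustment). The labels of NAc library 122 conflict, Lmo4gt/+ by title but WT by genotype field. It held 69.7 CPM of Lmo4, the top value among NAc punches titled Lmo4gt/+. That value lies inside the WT NAc range of 67.75 to 105.9 CPM, so Lmo4 does not settle its genotype. It also held 21 reads of Gbp5, a gene 1.67 Mb from Lmo4 that no WT NAc library had a read of. The link of Gbp5 to genotype comes from these same data, with library 122 counted as Lmo4gt/+. The library was kept with Lmo4gt/+. The punches held their labelled region's neurons: 4 glutamatergic markers summed to medians of 2009 CPM in Lmo4gt/+ BLA and 1985 CPM in WT BLA, and 6 medium spiny neuron markers to 2602 CPM in Lmo4gt/+ NAc and 2341 CPM in WT NAc. Some libraries also held markers from elsewhere. The summed level of the glutamatergic markers reached 698 CPM in Lmo4gt/+ NAc library 122 and 1159 CPM in WT NAc library 134 against NAc medians of 8.59 CPM in Lmo4gt/+ and 17.2 CPM in WT, the medium spiny neuron markers reached 498 CPM in Lmo4gt/+ BLA library 159 and 443 CPM in WT BLA library 156, and 4 choroid plexus markers reached 628 CPM in Lmo4gt/+ BLA library 127. The 5 oligodendrocyte markers were all below 0 by genotype in both regions, none at an unadjusted p under 0.05, with summed medians of 1625 CPM in Lmo4gt/+ and 1940 CPM in WT BLA, and 4354 CPM in Lmo4gt/+ and 5761 CPM in WT NAc; their part in the results was not tested. Other lists also lay to one side of 0. The 4 meninges markers were above 0 in the BLA (median 0.32, 1 at an unadjusted p under 0.05; summed medians of 25.8 CPM in Lmo4gt/+ and 20.2 CPM in WT), and so were the 3 choroid plexus markers tested there (median 1.03). The summed medians of the 4 choroid plexus markers lay the other way, 6.19 CPM in Lmo4gt/+ BLA and 9.81 CPM in WT BLA. Their highest sums were 628 CPM in Lmo4gt/+ library 127 and 171 CPM in WT library 151. In the NAc the 4 glutamatergic markers were below 0 (median -0.84) and the 6 medium spiny neuron markers above 0 (median 0.10), and the part of these lists was not tested either.

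The segment holds 65 genes besides Lmo4 that the files list, of which 4 were Gbp genes and 27 fell under the summed count, 12 of them with no read in any library. The 34 that remained were 33 protein-coding genes and the lincRNA Gm15688. Only 8 lay at lower positions than Lmo4 and 26 at higher positions. On the lower side the nearest neighbour was Pkn2, 1.31 Mb away, so that stretch of the segment had no member within 1 Mb; on the higher side Hs2st1, Sep15, Sh3glb1, Clca1, Clca2 and Odf2l lay 0.226 to 0.913 Mb away. The farthest members were B930007M17Rik (4.48 Mb, lower side) and Lphn2 (4.61 Mb, higher side). The members just inside the count limit were Samd13 with 47 reads, Lpar3 with 74 and Clca2 with 87 over all libraries, and the genes just outside it were Gm15689 with 33, Mcoln2 with 31 and a U6 gene with 25.

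No member passed the threshold for a genotype difference in either region. Of the 28 members deep enough to be tested in the BLA, edgeR called 0 at an adjusted p under 0.05, against 0.00585% of all 17087 genes, which is Lmo4 alone. In the NAc it called 0 of 26 tested members, against 0.00588% of 16999 genes, again Lmo4 alone. With both regions of a mouse summed, which makes 1 value for each of 19 mice, it called 0 of 28 members, against 0.0106% of 18864 genes, namely Lmo4 and Gbp5. Gbp5 lies in the segment but was left out of the members by name. Its log2 fold change in the summed mice was 6.14 ± 0.515 (adjusted p = 6.71e-08, edgeR). DESeq2 and limma voom called 0 members in each of these comparisons too. At an unadjusted p under 0.05, each of the 3 tools picked 1 member in the BLA (Pdlim5), 1 in the NAc (Rpf1) and 0 in the summed mice. These counts stand beside 4.11% of all genes in the BLA, 2.67% in the NAc and 3.65% in the summed mice, and 1 of 28 and 1 of 26 members are shares of 3.57% and 3.85%. The lowest adjusted p of any member in any fit run was 0.386, for Pdlim5 in the BLA without a filter on low counts.

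Nor did any tested member have genotype ranges that stood apart. Between Lmo4gt/+ and WT libraries the CPM ranges of 0 members were separate in the BLA (0.00585% of all genes, which is Lmo4), 0 in the NAc (0.0% of all genes) and 0 in the summed mice (0.0106% of all genes). In the NAc the ranges of Lmo4 itself overlapped too. There 8 of 9 Lmo4gt/+ libraries lay below every WT library, and the other was library 122, whose labels conflict. The median log2 fold change of the tested members was -0.01 in the BLA, 0.01 in the NAc and 0.01 in the summed mice, where that of all genes was 0.00 in each. The members' median absolute log2 fold change was 0.050 in the BLA, 0.072 in the NAc and 0.050 in the summed mice, beside 0.061, 0.077 and 0.057 over all genes.

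**Figure D1:**
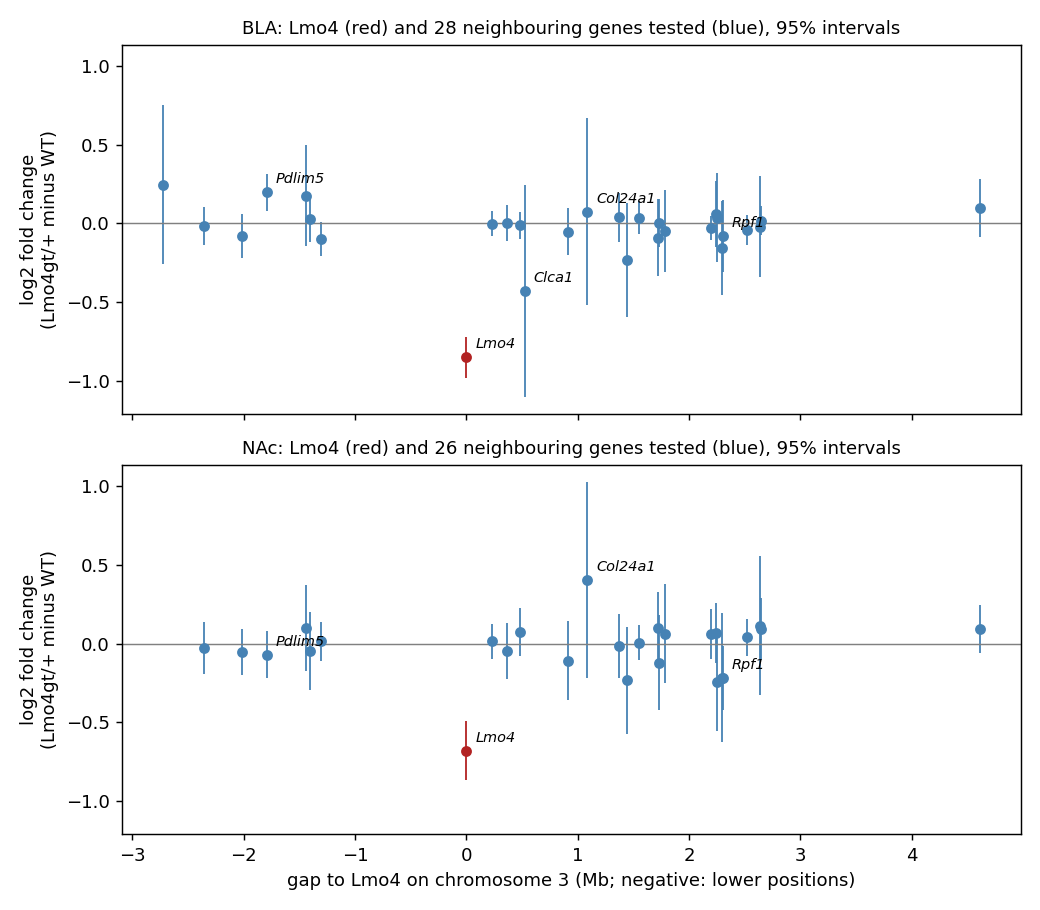
Log2 fold change (Lmo4gt/+ minus WT) of Lmo4 (red) and of each tested member (blue), with 95% intervals, against the gap to Lmo4 in Mb (negative at lower positions), in the BLA (28 members, top) and the NAc (26 members, bottom). The members lie around 0 at every distance, between -0.43 and 0.25 in the BLA and between -0.24 and 0.40 in the NAc, while Lmo4 lies at -0.85 and -0.68.

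The intervals show how large a difference the data leave room for. In the BLA the 95% interval excluded a 1.5-fold difference for 24 of 28 members, where it did so for 77.1% of all genes; the exceptions were Gm15688, Clca1, Col24a1 and Cyr61. In the NAc it excluded 1.5-fold for 24 of 26 members, against 73.3% of all genes, with Col24a1 and Gng5 as the exceptions. In the summed mice it did so for 26 of 28 members, against 77.2% of all genes. A loss as large as that of Lmo4 itself lay outside the interval of 27 of 28 members in the BLA, of 26 of 26 in the NAc and of 27 of 28 in the summed mice. The shares of all genes were 92.9%, 86.5% and 91.9% in that order. The exception in the BLA and the summed mice was Clca1, a member of the chloride channel accessory family with 0.566 ± 0.313 CPM in Lmo4gt/+ BLA and 0.765 ± 0.273 CPM in WT BLA (SD, n = 9 and n = 11), whose log2 fold change there was -0.43 ± 0.33.

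By distance, no test of order was run. Within 1 Mb of Lmo4 the 5 members tested in the BLA had a median log2 fold change of -0.01 (range -0.43 to 0.00), the 18 members at 1 to 2.5 Mb -0.01 (-0.23 to 0.20) and the 5 members at 2.5 to 5 Mb 0.02 (-0.04 to 0.25). In the NAc the medians were -0.02 over 4 members, -0.02 over 18 and 0.09 over 4, from near to far, and in the summed mice they were -0.01 over 5 members, 0.00 over 18 and 0.08 over 5, with 4 of these last 5 above 0. The 4 far members in the NAc, Prkacb, Gm10288, Ttll7 and Lphn2, all had values above 0 (0.04 to 0.11), none at an unadjusted p under 0.05. The 7 tested members at lower positions had a BLA median of 0.03 and the 21 at higher positions one of -0.01; in the NAc these were -0.04 over 6 members and 0.03 over 20. Among the 26 members tested in both regions, 6 had values above 0 in both, 6 below 0 in both and 14 of opposite sign. For scale, the 42 chromosome 3 genes tested in the BLA that lie 5 to 10 Mb from Lmo4 had a median of 0.01 and 2 genes at an unadjusted p under 0.05, and the 44 tested in the NAc a median of 0.01 and 1 such gene.

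The immediate neighbours on the higher side are Hs2st1, which puts a sulphate on heparan sulphate chains, and Sep15, a selenoprotein of the endoplasmic reticulum. Hs2st1 (chr3:144094067-144233145, minus strand, 0.226 Mb from Lmo4) had 83.2 CPM in the lowest, 95.1 in the median and 101 in the highest Lmo4gt/+ BLA library, against 87.3, 94.7 and 101 CPM in WT BLA. Its NAc values were 71.8, 75.4 and 91.1 CPM in Lmo4gt/+ and 66.6, 78.0 and 82.1 CPM in WT. The groups overlapped in both regions, and the log2 fold change was 0.00 ± 0.04 in the BLA (95% interval -0.08 to 0.08) and 0.01 ± 0.05 in the NAc (-0.10 to 0.12). Hs2st1 had the narrowest interval of the members in the summed mice, -0.06 to 0.07. Sep15 (chr3:144233268-144260644, plus strand) starts back to back with Hs2st1 and had a log2 fold change of 0.00 ± 0.06 in the BLA and -0.05 ± 0.09 in the NAc. Sh3glb1, the membrane-bending protein endophilin B1 (0.480 Mb), stood at -0.01 ± 0.04 in the BLA and 0.07 ± 0.07 in the NAc.

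Promoter windows are shown for the nearest neighbour and for the member with the lowest p, to set the start regions beside the values; each window runs from 250 bases before to 50 after the start in RefSeq (GRCm38.p6), and its NCBIM37 position was found by an exact match. Capitals mark GC boxes, the motif GGGCGG or its complement CCGCCC, bound by Sp-family factors. Hs2st1, at chr3:144233131-144233430 on the minus strand, holds 32 CpG pairs and 2 GC boxes, and lies on a start region shared with Sep15, whose first base is 211 bases away on the other strand. Pdlim5, at chr3:142058611-142058910 on the minus strand, holds 22 CpG pairs and 1 GC box; a second RefSeq window of Pdlim5, at chr3:142054765-142055064, holds 2 CpG pairs, no GC box and 1 TATAAA.
Hs2st1: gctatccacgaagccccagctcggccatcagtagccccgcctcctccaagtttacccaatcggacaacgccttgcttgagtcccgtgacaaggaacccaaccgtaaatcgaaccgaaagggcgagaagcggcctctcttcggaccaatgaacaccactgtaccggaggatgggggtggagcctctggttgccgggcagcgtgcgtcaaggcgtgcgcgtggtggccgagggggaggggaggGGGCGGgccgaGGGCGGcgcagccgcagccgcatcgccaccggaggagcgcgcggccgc
Pdlim5: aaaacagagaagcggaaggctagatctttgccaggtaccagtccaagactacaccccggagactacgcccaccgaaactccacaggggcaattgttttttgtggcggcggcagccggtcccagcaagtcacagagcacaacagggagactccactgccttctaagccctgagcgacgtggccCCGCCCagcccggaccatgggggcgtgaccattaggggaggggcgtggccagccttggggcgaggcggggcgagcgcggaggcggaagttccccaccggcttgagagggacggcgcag

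Of the 34 members, 29 matched a RefSeq window by symbol or synonym, with 38 windows among them. A GC box on either strand stood in 57.9% of these windows and in 35.7% of all 32851 windows of the same length, and the median CpG count was 22.5 in members' windows and 7 in all windows. The motif TATAAA, on either strand, stood in 13.2% of members' windows and 13.6% of all windows. Members had to pass a minimum read count, which was not asked of all windows, so these shares come from unlike sets. Some members' windows also count the same bases more than once: those of Hs2st1 and Sep15 overlap by 290 bases. A match is a string of letters in the window and says nothing of binding.

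On the lower side the nearest neighbours are Pkn2, a serine/threonine protein kinase, and Gtf2b, the general transcription factor TFIIB. Pkn2 (chr3:142453866-142544968, minus strand, 1.31 Mb) ran from 28.2 CPM over a median of 31.9 to 37.6 CPM in Lmo4gt/+ BLA, and from 29.02 over 35.2 to 38.1 CPM in WT BLA. Of the 9 Lmo4gt/+ BLA libraries, 8 lay under the WT median, and the ranges overlapped. The log2 fold change was -0.10 ± 0.05 (p = 0.0752, adjusted p = 0.998, edgeR), and in the NAc it was 0.01 ± 0.06. Without Lmo4gt/+ BLA library 147, the highest of its group, the BLA value was -0.13, at an unadjusted p under 0.05. Gtf2b (chr3:142428190-142446567, plus strand, 1.40 Mb) stood at 0.03 ± 0.07 in the BLA and -0.05 ± 0.12 in the NAc.

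Pdlim5, a PDZ and LIM domain scaffold of the actin cytoskeleton, had the lowest p of the members in the BLA. It lies at chr3:141903568-142058630 on the minus strand, 1.79 Mb from Lmo4 on the lower side. In Lmo4gt/+ BLA the lowest, median and highest libraries had 28.99, 31.1 and 39.4 CPM, against 25.96, 28.3 and 31.3 CPM in WT BLA. All 9 Lmo4gt/+ BLA libraries lay above the WT median and 4 lay above every WT library, while 3 of 11 WT libraries lay above the lowest Lmo4gt/+ library, so the ranges overlapped. The log2 fold change was 0.20 ± 0.06 (95% interval 0.08 to 0.32), a ratio of 1.15, and it ranked 21 of 17087 genes by p (p = 0.00183, adjusted p = 0.998, edgeR).

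The same gene took the other sign in the NAc. There Pdlim5 had 26.9, 30.9 and 36.4 CPM in the lowest, median and highest Lmo4gt/+ library and 25.5, 32.5 and 37.4 CPM in WT, a log2 fold change of -0.07 ± 0.07. The 2 genotype effects differed by -0.26 ± 0.08 (NAc minus BLA, with the mouse as a block), which did not pass over all genes (p = 0.0043, adjusted p = 0.9999, edgeR); this was 1 of 28 members at an unadjusted p under 0.05 for the difference between regions, against 2.96% of 18325 genes, with 0 called among the members and 0 called among all genes (0.0%). DESeq2 picked the same 1 member. In the summed mice Pdlim5 stood at 0.05 ± 0.05.

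The Pdlim5 values in the BLA kept their sign and an unadjusted p under 0.05 when each of the 20 libraries was left out in turn (log2 fold change 0.16 to 0.22, p = 0.00098 to 0.00626, edgeR). The 2 highest libraries were those of mice 147 and 127, with 39.4 and 37.5 CPM. Library 127 is the one with the choroid plexus markers; without it the log2 fold change was 0.17 ± 0.06, and without library 147 it was 0.16 ± 0.05. Mouse 127 had the highest Lmo4gt/+ value of Pdlim5 in the NAc as well, 36.4 CPM.

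**Figure D2:**
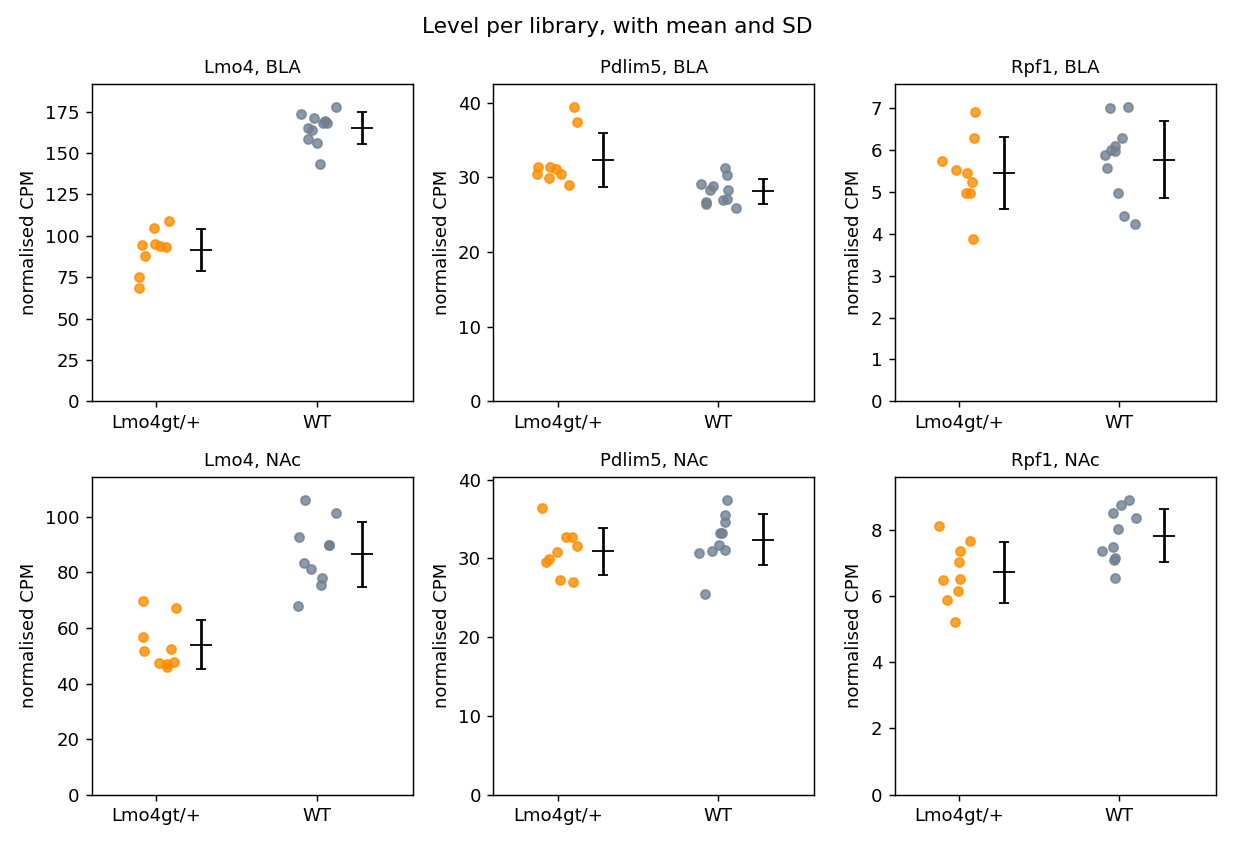
Normalised CPM of Lmo4, Pdlim5 and Rpf1 in each library (points), Lmo4gt/+ left of WT, in the BLA (top) and the NAc (bottom), with the mean and SD of each group as a cross and bars. The groups of Pdlim5 and Rpf1 overlap in both regions: Pdlim5 in the BLA ran from 28.99 to 39.4 CPM in Lmo4gt/+ and from 25.96 to 31.3 CPM in WT.

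The genes of RNA and protein machinery are Gtf2b, Znhit6, which helps assemble box C/D snoRNPs, Rpf1, a ribosome production factor, and Sep15. None of the 4 passed, and at an unadjusted p under 0.05 the list had 0 in the BLA and 1 in the NAc. Their median log2 fold change was 0.01 in the BLA (-0.08 to 0.04) and -0.05 in the NAc (-0.22 to -0.02), where all 4 values were below 0. Without NAc library 149 only that of Rpf1 was below 0, and Gtf2b stood at 0.02, Sep15 at 0.01 and Znhit6 at 0.03. Rpf1 (chr3:146169312-146184387, minus strand, 2.30 Mb, higher side) had 5.22, 6.52 and 8.11 CPM in the lowest, median and highest Lmo4gt/+ NAc library, against 6.53, 7.76 and 8.89 CPM in WT NAc. Of the 9 Lmo4gt/+ NAc libraries 5 lay under every WT library and 1 lay above the WT median, with the ranges overlapping. The log2 fold change was -0.22 ± 0.10 (95% interval -0.42 to -0.02, p = 0.0346, adjusted p = 0.9999, edgeR). It stayed at an unadjusted p under 0.05 in 12 of the 19 fits that each left out 1 NAc library (p = 0.0172 to 0.0649), and not in the fit without library 149, the lowest of its group (-0.18 ± 0.09, p = 0.0629), nor without a filter on low counts (p = 0.0619). In the BLA Rpf1 stood at -0.08 ± 0.11. The annotated span of Dnase2b, a gene with 13 reads in all, covers Rpf1 on the same strand, and reads that fit both would not be told apart.

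The signalling members are the largest group, with 9 genes of which 8 were tested. They are Prkacb, a catalytic subunit of protein kinase A, Gng5, a G protein gamma subunit, Bcl10, an adaptor on the way to NF-kappaB, Syde2, a GTPase-activating protein, Bmpr1b, a BMP receptor, Unc5c, a netrin receptor, Lphn2, an adhesion receptor of the latrophilin family, Pkn2, and Lpar3, a lysophosphatidic acid receptor too low to test. None passed in either region; 7 of 8 values were below 0 in the BLA (median -0.06) and 3 of 8 in the NAc (median 0.03).

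Prkacb (chr3:146392543-146475924, minus strand, 2.52 Mb) was the most abundant member. It had 639, 757 and 796 CPM in the lowest, median and highest Lmo4gt/+ BLA library, against 692, 744 and 859 CPM in WT BLA, and 706, 756 and 775 CPM in Lmo4gt/+ NAc, against 618, 747 and 813 CPM in WT NAc. The ranges overlapped throughout, and its log2 fold change was -0.04 ± 0.05 in the BLA and 0.04 ± 0.06 in the NAc.

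Gng5 (chr3:146162798-146168536, plus strand, 2.29 Mb) shares its start region with Spata1 on the other strand, 43 or 83 bases away depending on the Spata1 transcript. It had 2.23, 3.55 and 4.84 CPM in Lmo4gt/+ BLA and 2.53, 4.23 and 5.58 CPM in WT BLA, lowest, median and highest. In the NAc these were 1.37, 4.03 and 6.40 CPM in Lmo4gt/+ and 3.44, 4.59 and 6.63 CPM in WT. The groups overlapped in both regions, with log2 fold changes of -0.16 ± 0.15 in the BLA, -0.22 ± 0.20 in the NAc and -0.19 ± 0.12 in the summed mice (p = 0.144, adjusted p = 0.9999, edgeR). The lowest NAc value was that of library 149, and without it the NAc log2 fold change was -0.11 ± 0.16. The Gng5 window, shown for its density of CpG pairs, lies at chr3:146162550-146162849 on the plus strand and holds 52 CpG pairs, a count that 0.575% of all windows reach, and 4 GC boxes in capitals.
Gng5: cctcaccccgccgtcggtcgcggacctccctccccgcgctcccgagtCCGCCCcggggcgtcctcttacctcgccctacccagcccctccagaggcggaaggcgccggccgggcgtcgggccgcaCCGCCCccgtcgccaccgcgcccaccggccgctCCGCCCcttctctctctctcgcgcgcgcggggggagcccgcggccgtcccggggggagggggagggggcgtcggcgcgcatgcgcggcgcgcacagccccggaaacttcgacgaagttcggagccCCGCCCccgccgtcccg

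Lphn2, the farthest member on the higher side, stood at 0.09 ± 0.09 in the BLA and 0.09 ± 0.07 in the NAc. In Lmo4gt/+ NAc it ran from 126 over a median of 170 to 190.1 CPM, against 127, 155 and 185 CPM in WT NAc, and 8 of 9 Lmo4gt/+ libraries lay above the WT median. Bmpr1b (2.02 Mb, lower side) stood at -0.08 ± 0.07 in the BLA and -0.05 ± 0.07 in the NAc, and Unc5c (2.35 Mb, lower side) at -0.02 ± 0.06 and -0.03 ± 0.08 there. Bcl10 and Syde2, neighbours at 1.72 and 1.78 Mb on the higher side, had BLA values of -0.09 ± 0.12 and -0.05 ± 0.13. Their NAc values were above 0, at 0.10 ± 0.11 and 0.06 ± 0.15.

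Of the metabolic enzymes, 4 of 5 were tested and none passed. Ccbl2, a kynurenine aminotransferase (chr3:142364015-142407874, plus strand, 1.44 Mb, lower side), had 1.94, 2.76 and 3.67 CPM in the lowest, median and highest Lmo4gt/+ BLA library, against 1.32, 2.47 and 3.33 CPM in WT BLA. In the NAc it had 4.73, 5.84 and 8.30 CPM in Lmo4gt/+ and 4.10, 5.63 and 7.60 CPM in WT. Both pairs of ranges overlapped, and the log2 fold changes were 0.17 ± 0.16 in the BLA and 0.10 ± 0.13 in the NAc. Ddah1, which breaks down the nitric oxide synthase inhibitor dimethylarginine (1.55 Mb, higher side), stood at 0.04 ± 0.05 in the BLA and 0.01 ± 0.05 in the NAc. Ctbs, the lysosomal chitobiase (2.25 Mb, higher side), stood at 0.06 ± 0.10 and 0.06 ± 0.09 there. The urate oxidase gene Uox was too low to test, with 46 reads over 9 Lmo4gt/+ and 57 over 11 WT BLA libraries.

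Among the 8 genes of the cytoskeleton, cilia and membrane shape, 6 were tested and none passed over all genes. Besides Pdlim5 and Sh3glb1 these were Ttll7, an enzyme that adds glutamates to tubulin, Ssx2ip, a centrosome and adhesion protein, Odf2l, related to a sperm outer dense fibre protein, and Spata1, named for its expression in testis. Ttll7 (chr3:146515331-146646973, plus strand, 2.65 Mb, higher side) had 304, 335 and 383 CPM in the lowest, median and highest Lmo4gt/+ BLA library, against 294, 334 and 377 CPM in WT BLA. In the NAc it had 390, 498 and 809 CPM in Lmo4gt/+ and 431, 489 and 525 CPM in WT. The groups overlapped, and only Lmo4gt/+ NAc library 149 lay far above the others. The log2 fold change was 0.02 ± 0.04 in the BLA and 0.09 ± 0.10 in the NAc, where it was -0.01 ± 0.06 without library 149.

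The annotated span of Spata1 overlaps that of Ctbs on the opposite strand by 8647 bases and that of Dnase2b, with 13 reads in all, on the same strand by 42551 bases. Spata1 held 3472 reads and Ctbs 10195 over all libraries, and since it is not known whether counting used strand, reads from any stretch that exons of both share could not be told apart. Spata1 had 2.09, 2.43 and 3.65 CPM in the lowest, median and highest Lmo4gt/+ NAc library and 2.06, 3.03 and 4.23 CPM in WT NAc, with 8 of 9 Lmo4gt/+ libraries under the WT median. Its log2 fold change was -0.24 ± 0.15 in the NAc and 0.04 ± 0.14 in the BLA. Ssx2ip had the smallest SD relative to its mean of the tested members in the BLA, 4.61% in Lmo4gt/+ and 4.53% in WT, and a BLA log2 fold change of -0.03 ± 0.04. Odf2l stood at -0.05 ± 0.07 in the BLA and -0.11 ± 0.12 in the NAc, where it was -0.04 ± 0.10 without library 149.

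The 2 extracellular matrix members were scarce, and neither passed. Cyr61, a secreted matricellular protein of the CCN family (1.44 Mb, higher side), had 2.16, 3.29 and 4.83 CPM in the lowest, median and highest Lmo4gt/+ BLA library, against 2.71, 3.52 and 5.86 CPM in WT BLA. In the NAc it had 1.97, 3.01 and 4.98 CPM in Lmo4gt/+ and 2.52, 4.03 and 4.65 CPM in WT, and 8 of 9 Lmo4gt/+ NAc libraries lay under the WT median. The log2 fold changes were of one size, -0.23 ± 0.18 in the BLA and -0.24 ± 0.17 in the NAc, and -0.19 ± 0.12 in the summed mice (p = 0.128, adjusted p = 0.9999, edgeR). Col24a1, a fibrillar collagen (1.09 Mb, higher side), ran from 0.633 to 4.85 CPM in Lmo4gt/+ NAc and from 1.17 to 3.53 CPM in WT NAc, and its log2 fold changes were 0.40 ± 0.30 in the NAc and 0.07 ± 0.29 in the BLA. Its interval in the NAc reached from 0.86-fold to 2.04-fold, so a difference of up to that size was not excluded. Library 149 was the lowest of the Lmo4gt/+ NAc libraries for Col24a1. Without that library the NAc log2 fold change was larger, 0.53 ± 0.27 (p = 0.0587, not called, edgeR).

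**Figure D3:**
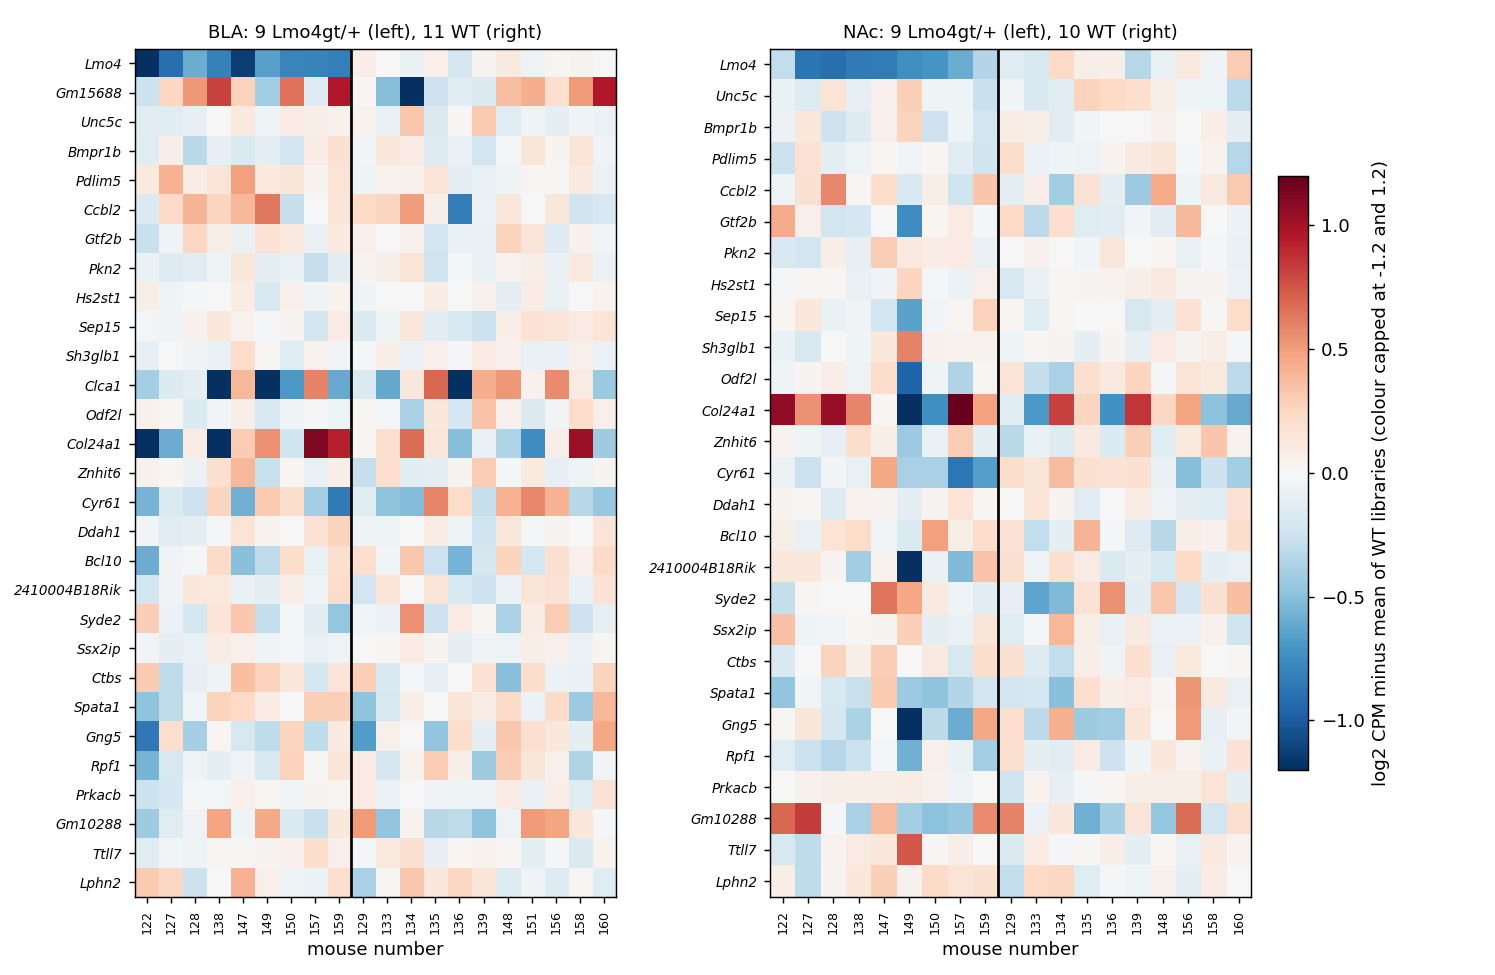
Log2 CPM of each tested member (and Lmo4, top row) in each library, minus the mean of the WT libraries of that region, with Lmo4gt/+ left of the black line, members in chromosome order and colours capped at -1.2 and 1.2. The Lmo4 row is below 0 in every Lmo4gt/+ library. It separates the genotypes in the BLA but not in the NAc, where its ranges overlap, and no other row separates them. Lmo4gt/+ NAc library 149 is the column with the widest departures.

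Lmo4gt/+ NAc library 149 stood apart over the members. It also had the lowest gene count of the 39 libraries, 21255934, and the highest shares of reads without a feature (27.61%) and of reads given to no gene (38.06%). Its values departed from the mean of the other Lmo4gt/+ NAc libraries by a median absolute log2 of 0.356 over 26 members, where the other 38 libraries had medians of 0.086 to 0.243 against their own groups. The departures ran from -2.14 (Col24a1) and -1.64 (Gng5) to 0.60 (Sh3glb1) and 0.76 (Ttll7), and 9 of 26 members lay more than 0.5 away. Over these 26 members the departure and the exon length had a Spearman's rho of 0.63, a description of points that share 1 library; the other libraries ran from -0.607 to 0.571. Library 149 is the lowest of the Lmo4gt/+ NAc libraries for Rpf1 and Gng5 and the highest for Hs2st1, Sh3glb1 and Ttll7. Without it Sh3glb1 stood at -0.01 ± 0.05 and Hs2st1 at -0.02 ± 0.04 in the NAc. Some values moved away from 0 without library 149, among them Bmpr1b (-0.099 ± 0.063), Unc5c (-0.071 ± 0.075) and Col24a1 (0.529 ± 0.266).

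The members too low to be tested were B930007M17Rik, Clca2, Wdr63, Lpar3, Uox and Samd13 in both regions, and Gm15688 and Clca1 in the NAc. Clca2, of the same family as Clca1, had 24 reads over 9 Lmo4gt/+ and 59 over 11 WT BLA libraries, and 2 reads in each genotype's NAc. Wdr63, an axonemal dynein component, had 68 reads in Lmo4gt/+ BLA, 66 of them from mouse 127, and 37 in WT BLA; its 32 reads in Lmo4gt/+ NAc held 29 from the same mouse, against 4 in WT NAc. The BLA library of mouse 127 is the one with the choroid plexus markers. In Lmo4gt/+ NAc the highest sum of those markers, 43.7 CPM, was in library 147. Fitted without a filter on low counts, the difference of Wdr63 in the NAc reached an unadjusted p of 0.0422 (adjusted p = 0.619, edgeR). In that fit 1 of 34 members and 2313 of 31323 genes were at an unadjusted p under 0.05. B930007M17Rik had 7 reads in Lmo4gt/+ BLA and 34 in WT BLA, but 38 in Lmo4gt/+ NAc and 20 in WT NAc. Samd13 had 7 reads in Lmo4gt/+ and 20 in WT BLA, and Lpar3 had 12 in Lmo4gt/+ and 24 in WT BLA. Gm15688, the lincRNA, had a log2 fold change of 0.25 ± 0.25 in the BLA and 0.10 ± 0.23 in the summed mice, and it was not tested in the NAc alone.

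Levels of the neighbours in the 2 brain regions were set side by side within each genotype, where the members' shares lay near or below those of all genes. Over the 10 WT mice with both regions, NAc and BLA ranges stood apart for 6 of the 28 members tested in the fit of both regions, a share of 21.4% beside 18.4% of all 18325 genes. NAc levels were higher for Ccbl2 (5.67 ± 1.12 CPM in the NAc, 2.42 ± 0.55 CPM in the BLA), Pkn2 (42.3 ± 1.88 and 34.2 ± 2.70 CPM there) and Ttll7 (484 ± 31.2 and 335 ± 23.3 CPM). NAc levels were lower for Ssx2ip (71.7 ± 9.18 CPM in the NAc, 113 ± 5.03 CPM in the BLA), Hs2st1 (76.3 ± 4.63 and 94.3 ± 4.15 CPM there) and Clca1 (0.041 ± 0.068 and 0.768 ± 0.288 CPM). In the 9 Lmo4gt/+ mice the ranges stood apart for 4 of 28 members, 14.3% beside 19.1% of all genes: Ccbl2 and Ttll7 higher in the NAc, Ssx2ip and Gm15688 lower. Ccbl2 was 2.23 times as high in the NAc as in the BLA of Lmo4gt/+ mice and 2.35 times in WT mice. These are levels in bulk punches, in which fewer cells of a type and less RNA per cell cannot be told apart.

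**Figure D4:**
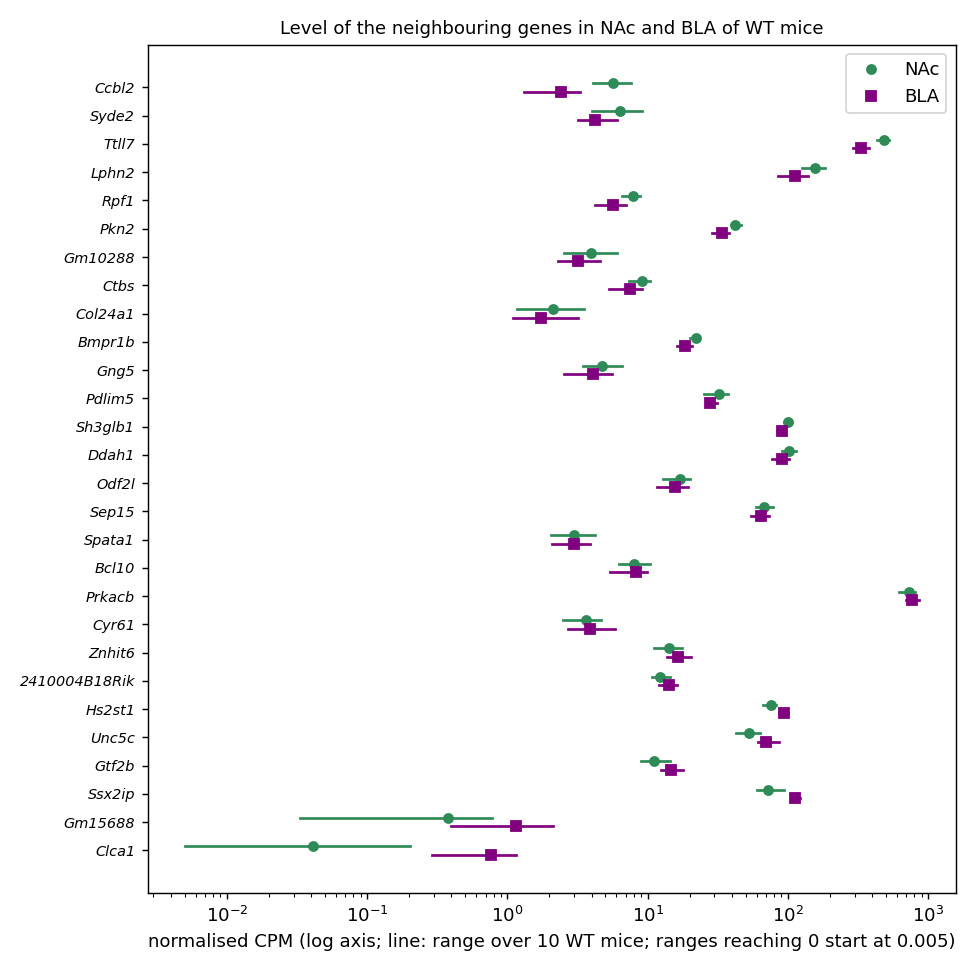
Mean normalised CPM (log axis) of each tested member in the NAc (circles) and the BLA (squares) of the 10 WT mice with both regions, with lines for the range over mice, sorted from the highest to the lowest ratio of NAc to BLA. The ranges stand apart for Ccbl2, Ttll7, Pkn2, Hs2st1, Ssx2ip and Clca1, 6 of 28 members.

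Per kilobase of exon, which allows levels of different genes to be set side by side, Prkacb led in every group. It had 134 ± 10.5 CPM per kb in WT NAc and 140.2 ± 9.49 in WT BLA, followed by Ttll7 with 59.1 ± 3.81 and 40.6 ± 2.92, and Sep15 with 32.2 ± 2.91 and 31.2 ± 3.43. Ddah1, Sh3glb1, Lphn2, Ssx2ip and Hs2st1 followed in the NAc between 25.5 and 15.5 CPM per kb, with SDs of 0.94 to 2.19, so Ddah1 and Sh3glb1 lay within their spread of each other and so did Lphn2 and Ssx2ip. Of the near neighbours on the lower side, Gtf2b had 125 to 476 reads in each Lmo4gt/+ NAc library and 208 to 409 in each WT NAc library.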

How the data were processed

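Each deposited file holds, per the file headers and values, whole-number read counts per Ensembl gene for 1 library, not normalised by the authors. HISAT2, HTSeq 0.11.1, MultiQC 1.7, DESeq2 and build mm9 are named per the submitters' processing notes; the sources used here give no settings, strand included. Reads given to no gene (24.74% to 38.06% per library) entered neither library sizes nor tests. Positions came from GENCODE vM1 on NCBIM37, matched on identifiers without version; gene limits used in counting could differ. The gap of a gene is its distance to the nearer end of Lmo4.

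Counts were tested with edgeR 4.0.16 in R 4.3.3 (TMM, filterByExpr with a minimum count of 10, robust quasi-likelihood F test, two-sided, Benjamini-Hochberg over all genes tested, threshold 0.05), coded Lmo4gt/+ minus WT, within each region, on counts summed over both regions of each of 19 mice, and for the region by genotype difference with the mouse number as a replicate block. Same-numbered libraries were paired because the titles number the mice and the design text counts the same mice for both regions. All fits ran on the whole table. Of them, the main edgeR fit of each comparison was also run on simulated counts, with 1 dispersion for all genes and no mouse effect. The genes to be changed were drawn only from those with a high mean count. The shares called were therefore not measured for scarce members such as Clca1 and Gm15688. At a log2 change of 1 the main fit called 99% to 100% of the changed genes. At 0.5 it called 77% in the BLA, 75% in the NAc, 77% in the summed mice and 25% for the region by genotype difference. False calls numbered 14, 12, 6 and 4 in that order. Levels are TMM-normalised CPM. Alternatives were RLE size factors, DESeq2 1.42.0, limma voom 3.58.1, no filter, all 39 libraries in 1 model, library 122 regrouped, and each library left out; leaving out libraries with marker levels apart was chosen after seeing the data.

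Members, lists and tests were chosen with earlier results of these data known. The text names members called or with separate ranges in any fit, the 8 lowest p in each genotype fit, the 3 nearest on each side, and the 5 highest in mean CPM; other members are named to complete their lists, after their values were seen.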

Additional observations from a re-analysis of the deposited data

Results flagged for a closer look

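In 7 of 60 groups of a named gene, the highest or lowest library lay apart from the next by more than Dixon's 95% limit; chance flags about 1 in 20 groups, and genes of 1 library are not independent. All 7 were Lmo4gt/+ libraries, but the WT BLA group, with 11 libraries, was too large for the limits used and was not examined. WT NAc was therefore the only WT group among those examined. NAc library 149 was the highest of its group for Hs2st1 (91.1 CPM, next 79.6), Sh3glb1 (152 CPM, next 111) and Ttll7 (809 CPM, next 532). Library 147 was the highest for Pkn2 in the BLA (37.6 CPM, next 32.96), Sh3glb1 in the BLA (105 CPM, next 92.7) and Spata1 in the NAc (3.65 CPM, next 2.86). NAc library 127 was the lowest for Lphn2 (126 CPM, next 160). None of these 6 genes was called with these libraries or with any 1 of them left out.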

How the results depend on the processing

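Under every alternative run, 0 members were called in any genotype comparison. All genes called were 2, in place of 1, in the BLA and in the NAc without a filter on low counts and with all 39 libraries in 1 model; leaving out 1 mouse gave 2 to 3 in the summed mice. Members at an unadjusted p under 0.05 were 0 in the NAc without libraries 122, 134 and 149. With 1 library or mouse left out they were 1 to 2 in the BLA (2 without Lmo4gt/+ 147 or WT 135, Pkn2 joining), 0 to 3 in the NAc (0 without Lmo4gt/+ 128, 149 or 159 or WT 129, 135, 148 or 160; 3 without Lmo4gt/+ 147, Spata1 and Cyr61 joining) and 0 to 1 in the summed mice (1 without mouse 134, 147, 150 or 158). Without Lmo4gt/+ 147 the BLA had 2 of 28 members beside 572 of 17249 genes at that level. The NAc had 3 of 26 members beside 399 of 17115 genes without it. Without WT 135 the BLA had 2 of 28 members beside 727 of 17040 genes. In the summed fits with 1 of 28 members, 635 to 709 of 18807 to 19063 genes reached that level. The causes were not tested. The mouse as a replicate block moved no call: without it Pdlim5 differed between regions by -0.27, with it by -0.26, and Lphn2 was at -0.0012 without it. Other signs turned for genes named by the rule, none called in any fit. In the BLA Col24a1 was -0.0834 with limma voom and -0.156 without libraries 129, 149, 156 and 159, a setting that also gave Gtf2b -0.0143, Sep15 -0.011 and Spata1 -0.0225, and Hs2st1 was 0.0015 without library 127. In the NAc Ddah1 was -0.0017 with library 122 as WT, and Hs2st1 -0.0204 and Sep15 0.0089 without libraries 122, 134 and 149. With 1 library left out, signs turned in the BLA for Col24a1 (-0.108 to 0.219), Gtf2b (-0.0003 to 0.0627), Hs2st1 (-0.0152 to 0.0192), Sep15 (-0.0234 to 0.0284), Sh3glb1 (-0.0449 to 0.0035), Spata1 (-0.0049 to 0.0916) and Ttll7 (-0.006 to 0.0377), and in the NAc for Ddah1 (-0.0127 to 0.0249), Gtf2b (-0.116 to 0.02), Hs2st1 (-0.021 to 0.0252), Pkn2 (-0.0255 to 0.0393), Sep15 (-0.0959 to 0.0099), Sh3glb1 (-0.0062 to 0.102) and Ttll7 (-0.0135 to 0.134). With 1 mouse left out, they turned in the summed mice for Ddah1 (-0.0005 to 0.0337), Gtf2b (-0.0034 to 0.0345), Hs2st1 (-0.0076 to 0.0115), Prkacb (-0.0146 to 0.0075), Sep15 (-0.0426 to 0.0097), Sh3glb1 (-0.0215 to 0.0288) and Ttll7 (-0.0081 to 0.0646). In all, 53 of 1083 values of named genes turned with 1 library or mouse left out and 10 of 429 under the other alternatives. Signs of other members turned as well, among them Syde2 (0.07), Gm10288 (0.01) and 2410004B18Rik (-0.02) in the BLA without libraries 129, 149, 156 and 159, Znhit6 in the BLA without 147 (-0.01) and in the NAc without 149 (0.03), and Ssx2ip in the NAc with library 122 as WT (-0.02). Depth limits the scarce members most: the 6 not tested in either region hold 47 to 141 reads over all 39 libraries.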
